A study of Mus musculus with 2 samples.

Results

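CTCF binding inside the mouse Zfp genes was described from the authors' optimal list of peaks in newborn kidney. A Zfp gene was any protein-coding gene of chromosomes 1 to 19 whose GENCODE symbol is Zfp followed by digits and optional letters. A peak belonged to such a gene when its summit, the single base where the signal was highest, lay inside the gene body or within 1 kb of one of its transcription start sites (TSSs). Of 63856 peaks on these chromosomes in the optimal list, 479 qualified. They fell in 478 distinct intervals with a median width of 330 bp, and 1 of them lay in 2 Zfp genes. The annotation held 383 Zfp genes among 20807 protein-coding genes, with 1577 distinct Zfp TSSs. The standard C2H2 finger pattern was found in the longest coding sequence of all but 13 of the 383 genes, so the gene name and the protein type matched for most members. The 13 included Zfp36, Zfp503, Zfp703 and Zfp750, whose proteins carry other or atypical zinc-binding domains.

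The data were CTCF chromatin immunoprecipitation libraries from whole kidney of B6NCrl mice collected on the day of birth, at postnatal day 0. There was 1 group, with no genotype change and no treatment, and it held 2 libraries numbered as biological replicates 1 and 2. Both libraries carried the same biosample and donor entry in their labels, the sex was not collected, and whether that donor was 1 animal or a pool is not given in the sources used here. Agreement between the libraries may therefore be technical. No condition was compared, and the comparisons below are between the 479 Zfp-gene peaks and the 37003 peaks assigned in the same way to other protein-coding genes.

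CTCF is a DNA-binding protein with its own array of zinc fingers, and it acts as an insulator and as an anchor of chromatin loops formed with cohesin. Its long asymmetric motif is read in 1 direction, and loop anchors are mostly motifs that point towards each other. Most Zfp genes encode C2H2 zinc-finger proteins, many of them with a KRAB domain that recruits the corepressor KAP1 to silence retroelements. These KRAB genes arose by tandem duplication and lie in dense clusters on a few chromosomes, with a short promoter, a large last exon that encodes the fingers, and introns rich in repeats.

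The motif matches under the summits show 3 kinds of site. The sequences below are mm10 (GRCm38) reference sequence, written 5′ to 3′ on the strand of the match. The 19 bases that matched the CTCF matrix are in capitals and the flanks are in lower case. The first set holds the matches of the highest-signal members, which sit in a coding exon, introns and promoters.
Zfp219 coding exon, chr14:52008973-52009031, plus strand: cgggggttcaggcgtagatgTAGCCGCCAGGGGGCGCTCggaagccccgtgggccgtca
Zfp618 intron, chr4:63119046-63119104, minus strand: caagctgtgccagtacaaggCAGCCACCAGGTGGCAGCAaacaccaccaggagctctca
Zfp398 promoter, chr6:47835574-47835632, plus strand: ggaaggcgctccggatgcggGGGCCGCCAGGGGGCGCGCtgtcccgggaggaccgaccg
Zfp286 intron, chr11:62756891-62756949, plus strand: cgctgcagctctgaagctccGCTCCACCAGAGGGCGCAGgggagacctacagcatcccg
Zfp638 promoter, chr6:83914247-83914305, minus strand: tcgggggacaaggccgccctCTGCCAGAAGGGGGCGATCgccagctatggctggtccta
Zfp950 intron, chr19:61084690-61084748, minus strand: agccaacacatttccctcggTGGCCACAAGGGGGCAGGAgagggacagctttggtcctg
Zfp385a promoter, chr15:103324141-103324199, minus strand: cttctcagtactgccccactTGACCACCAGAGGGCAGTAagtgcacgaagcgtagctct
Zfp664 intron, chr5:124900028-124900086, plus strand: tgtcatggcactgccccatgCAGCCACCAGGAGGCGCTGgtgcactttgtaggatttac
Zfp652 intron, chr11:95751175-95751233, minus strand: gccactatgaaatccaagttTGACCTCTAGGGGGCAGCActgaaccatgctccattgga

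The second set comes from neighbouring genes of 1 tandem cluster on chromosome 17. It is shown because the 6 matches resemble each other beyond the motif itself. All 6 lie on the minus strand, opposite to their genes.
Zfp677 promoter, chr17:21383457-21383515, minus strand: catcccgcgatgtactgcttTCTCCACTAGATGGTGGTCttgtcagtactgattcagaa
Zfp54 promoter, chr17:21422752-21422810, minus strand: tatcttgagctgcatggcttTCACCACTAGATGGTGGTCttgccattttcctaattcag
Zfp51 promoter, chr17:21449817-21449875, minus strand: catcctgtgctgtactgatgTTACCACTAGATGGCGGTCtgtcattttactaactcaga
Zfp52 promoter, chr17:21534586-21534644, minus strand: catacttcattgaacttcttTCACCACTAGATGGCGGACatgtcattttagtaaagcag
Zfp948 intron, chr17:21579660-21579718, minus strand: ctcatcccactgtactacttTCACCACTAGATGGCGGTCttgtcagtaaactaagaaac
Zfp983 promoter, chr17:21650077-21650135, minus strand: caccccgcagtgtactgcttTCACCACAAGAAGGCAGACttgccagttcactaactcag

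The third set holds 1 and the same 19-base match in 5 members on 4 chromosomes, in sequence that the genome assembly soft-masks as repeat. It is shown because it is the match that the most members shared.
Zfp64 intron, chr2:168894915-168894973, minus strand: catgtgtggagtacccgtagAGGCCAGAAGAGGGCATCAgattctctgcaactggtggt
Zfp618 intron, chr4:63099883-63099941, minus strand: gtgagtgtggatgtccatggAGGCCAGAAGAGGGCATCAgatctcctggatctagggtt
Zfp27 promoter, chr7:29898534-29898592, minus strand: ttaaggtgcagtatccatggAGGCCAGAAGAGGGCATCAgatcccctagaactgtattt
Zfp566 promoter, chr7:30091415-30091473, minus strand: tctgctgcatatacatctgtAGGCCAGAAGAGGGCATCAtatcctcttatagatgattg
Zfp280d promoter, chr9:72274153-72274211, plus strand: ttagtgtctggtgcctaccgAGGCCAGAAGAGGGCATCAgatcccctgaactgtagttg

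CTCF peaks of Zfp genes sat at promoters more often than those of other genes. Each peak received 1 position class, in the order promoter, coding exon, 3' UTR, 5' UTR, other exon and intron, where promoter means a summit within 1 kb of a TSS and other exon means an exon of an isoform without coding sequence at that place. Promoters held 223 of the 479 Zfp-gene peaks (46.6%, 95% Wilson interval 42.1% to 51.0%), against 28.3% of the peaks in other genes (27.8% to 28.8%). Introns held 215 (44.9%, 40.5% to 49.4%), against 64.2% in other genes. The remaining classes were small in both gene groups. They comprised 16 peaks in 3' UTRs (3.34%, against 3.08% in other genes), 15 in coding exons (3.13%, against 3.08%), 8 in other exons (1.67%, against 1.29%) and 2 in 5' UTRs (0.418%, 0.115% to 1.51%, against 0.0757%, 0.0524% to 0.109%). The 5' UTR share was the higher in Zfp genes with intervals apart, but it rests on 2 peaks. These intervals cover counting error only.

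**Figure D1:**
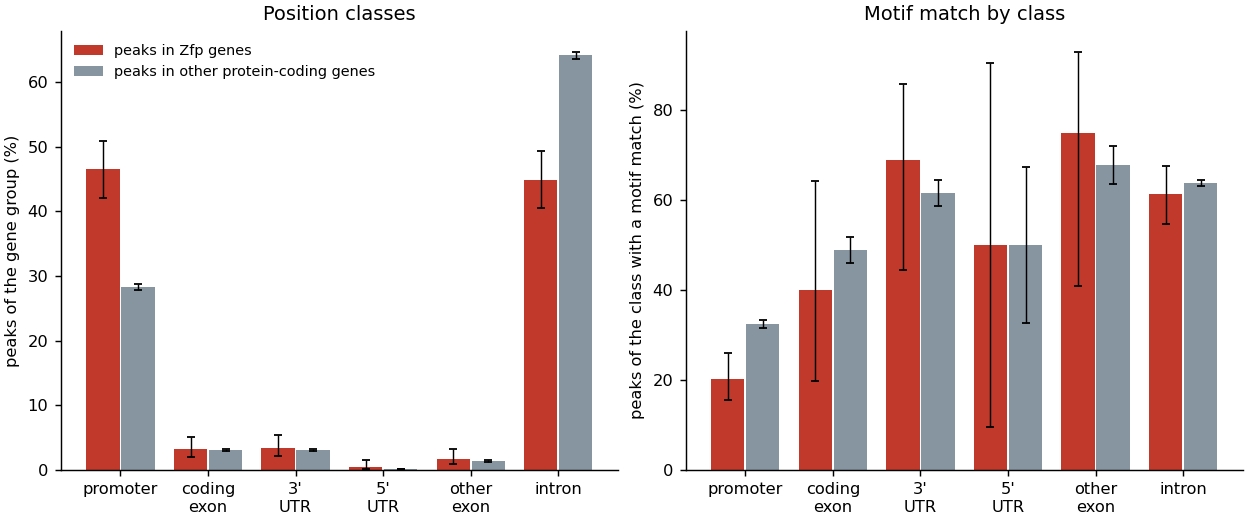
Left, percent of peaks in each position class for peaks in Zfp genes (red, 479 peaks) and peaks in other protein-coding genes (grey, 37003 peaks). Right, percent of the peaks of each class with a CTCF motif match within 100 bp of the summit, with 95% Wilson intervals as error bars in both panels. The Zfp-gene promoter bar stands at 46.6% beside 28.3%, and its motif share at 20.2% beside 32.3%.

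Gene length moves with this share. The median length was close in both groups, 17.4 kb for Zfp genes and 17.6 kb for other protein-coding genes, but the upper quartile was 28.6 kb for Zfp genes and 46.0 kb for the others. Within length classes the promoter share was 78.3% of Zfp-gene peaks against 69.9% of other-gene peaks for genes under 10 kb, and 63.8% against 44.8% for genes of 10 to 30 kb. In genes of 30 to 100 kb it was 30.8% against 26.4%, and in genes of 100 kb and over it was 15.9% against 13.1%. The Wilson intervals of the 2 gene groups were apart only in the class of 10 to 30 kb, which held 231 of the 383 Zfp genes.

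Counted by gene, 221 of the 383 Zfp genes had a peak in the body or at a promoter (57.7%, 52.7% to 62.5%), beside 62.6% of all protein-coding genes. A promoter peak was present at 173 Zfp genes (45.2%, 40.3% to 50.2%), beside 40.3% of all protein-coding genes. These pooled shares hide differences by gene length that run in opposite directions. Among genes under 10 kb, a peak was present at 33 of 68 Zfp genes (48.5%, 37.1% to 60.2%), against 34.2% of the other genes of that length, and a promoter peak at 28 (41.2%, 30.3% to 53.0%), against 26.8%. Among genes of 10 to 30 kb a peak was present at 55.8% of Zfp genes (49.4% to 62.1%), against 66.5% of other genes (65.3% to 67.7%), and among genes of 30 to 100 kb at 60.0% of Zfp genes (47.4% to 71.4%), against 83.7% of other genes (82.6% to 84.7%). The share with a promoter peak had overlapping intervals in both of these length classes, at 46.8% of Zfp genes (40.4% to 53.2%) against 43.0% (41.8% to 44.3%) for 10 to 30 kb, and 38.3% (27.1% to 51.0%) against 48.4% (47.0% to 49.8%) for 30 to 100 kb. No peak was listed at 162 Zfp genes, 120 had 1 peak, 47 had 2, 21 had 3 and 33 had 4 or more. Of the 162 genes without an optimal peak, 107 had a peak in the relaxed list of each library (66.0%), and 6 had one among the 65482 highest-signal peaks of both libraries (3.70%). These counts were not set beside those of other genes without an optimal peak, so they show nothing particular to Zfp genes.

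The promoter peaks of Zfp genes crowded around the TSS. The median summit lay 17 bp upstream (quartiles -220 bp and 160 bp), against 32 bp upstream in other genes. Within 200 bp of the TSS lay 117 of the 223 summits (52.5%), against 49.2% in other genes. The motif split the Zfp promoter peaks into 2 kinds. Of the 178 promoter peaks without a motif match, 107 (60.1%) lay within 200 bp of the TSS, against 10 of the 45 with a match (22.2%). The windows without a match had a median CpG observed-over-expected ratio of 0.624, against 0.262 in those with one. Their median signal percentile was 27.2, against 59.3 for promoter peaks with a match. The same 2 kinds were seen in other genes, where 55.1% of the promoter peaks without a match and 36.9% of those with one lay within 200 bp. Another protein-coding gene had a TSS within 1 kb at 24 of the 223 Zfp promoter peaks (10.8%), against 8.16% in other genes. Near the 1 kb bound, with the summit outside every Zfp gene body, the last summits counted lay 926 bp from a TSS of Zfp52 (signal percentile 90.3), 972 bp from Zfp952 (50.7) and 997 bp from Zfp687 (13.3), and the first not counted lay 1048 bp from Zfp809 (8.23), 1079 bp from Zfp362 (10.2) and 1082 bp from Zfp423 (63.8).

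**Figure D2:**
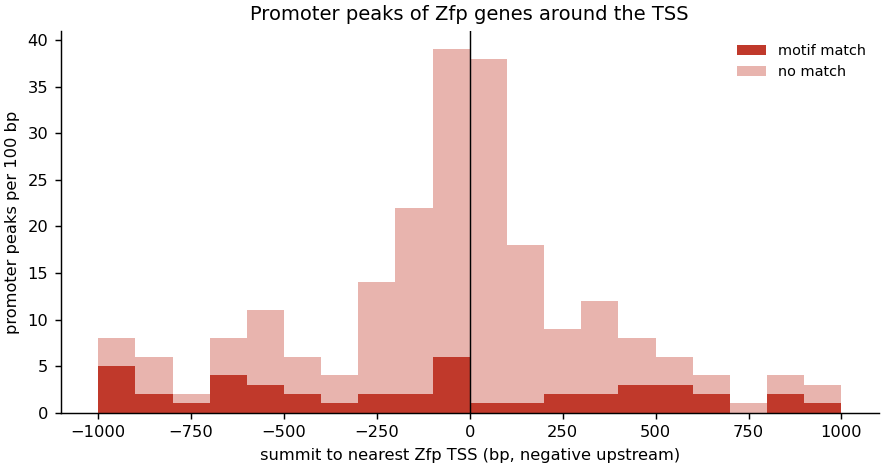
Number of the 223 promoter peaks of Zfp genes per 100 bp bin of distance from summit to the nearest Zfp TSS (negative is upstream), stacked by whether the summit has a motif match (45 peaks, dark) or none (178 peaks, pale). The pale bars pile up at the TSS and the dark bars are spread over the whole 2 kb.

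The signal of Zfp-gene peaks was lower than that of other peaks. The signal is the value that the authors' peak caller gave each peak, and it is used here only as a percentile of the whole optimal list. The median Zfp-gene peak stood at percentile 39.4 (quartiles 14.8 and 66.0), against 47.0 for peaks in other genes (quartiles 23.2 and 72.1). Only 24 of the 479 were in the upper 10% of the list (5.01%, 3.39% to 7.35%), against 8.80% of the peaks in other genes. By class, the median of Zfp-gene peaks was 32.8 at promoters, against 42.7 in other genes, and 42.3 in introns, against 48.3. It was 29.1 in coding exons, against 49.2 in other genes, and 41.0 in 3' UTRs, against 57.7. The 8 peaks in other exons went the other way, at a median of 56.4 against 50.7 in other genes. A motif match was less frequent as well, at 201 of 479 Zfp-gene peaks (42.0%, 37.6% to 46.4%), against 54.4% in other genes and 58.8% of all peaks on these chromosomes. Control windows placed 2 kb from the summits held a match in 1.46% of cases for Zfp-gene peaks and 1.78% for other genes. The match threshold was set on the control windows of peaks outside Zfp genes, so the value for other genes was largely fixed by it. Intron peaks of the 2 gene groups hardly differed in motif share (61.4%, 54.7% to 67.6%, against 63.8%), while promoter peaks did (20.2%, 15.4% to 25.9%, against 32.3%). The match centre lay within 20 bp of the summit in 87.1% of Zfp-gene matches, against 90.3% in other genes. Matches pointed along the gene's own strand in 97 of 201 cases (48.3%, 41.4% to 55.1%), against 49.9% in other genes.

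**Figure D3:**
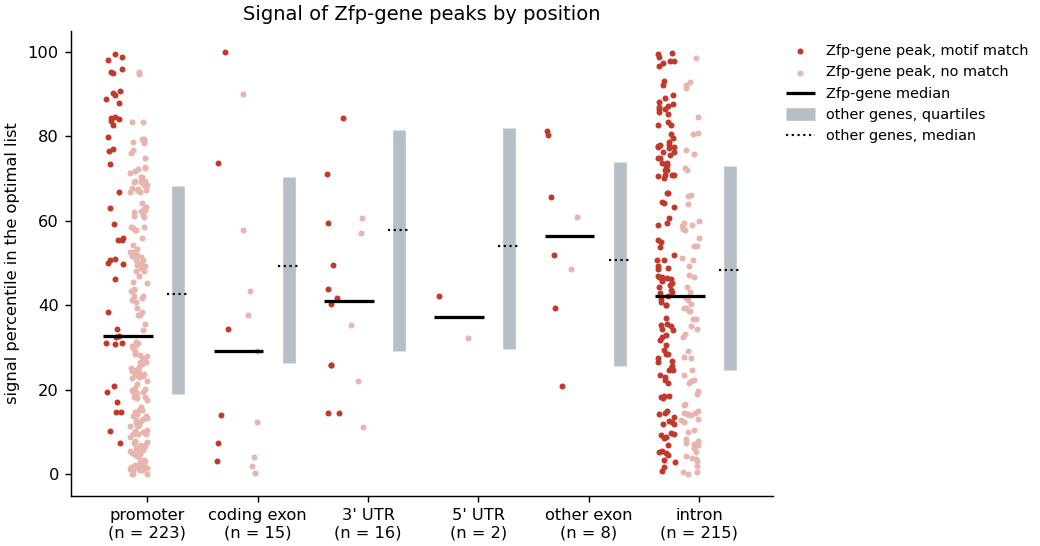
Signal percentile of each of the 479 Zfp-gene peaks by position class, dark where the summit had a motif match and pale where it had none, with the Zfp-gene median as a black bar. Grey bars to the right give the quartiles of peaks in other protein-coding genes and the dotted lines their medians, which stand above the Zfp-gene median in all classes except other exon.

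Both libraries contributed to most members. A peak of the upper set of each library, meaning its 65482 highest-signal peaks, overlapped 339 of the 479 Zfp-gene peaks by at least 1 bp (70.8%, 66.5% to 74.7%), beside 78.5% of all peaks on these chromosomes. In the relaxed lists of 300000 peaks each, 2 members had no overlapping peak in replicate 1 (0.418%, against 0.143% of the peaks in other genes). In replicate 2, 21 members had none (4.38%, 2.89% to 6.61%, against 2.56% in other genes, 2.41% to 2.73%). A conservative peak overlapped 365 members (76.2%), against 83.0% of the peaks in other genes. Signal moves with this: the members seen in 1 library only stood at percentile 43.5 or lower, and the lowest of all members, a promoter peak of Zfp579 at percentile 0.00611, ranked 70026 in replicate 1 and had no peak in replicate 2. Sequencing depth is unknown, because the files hold no read counts.

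**Figure D4:**
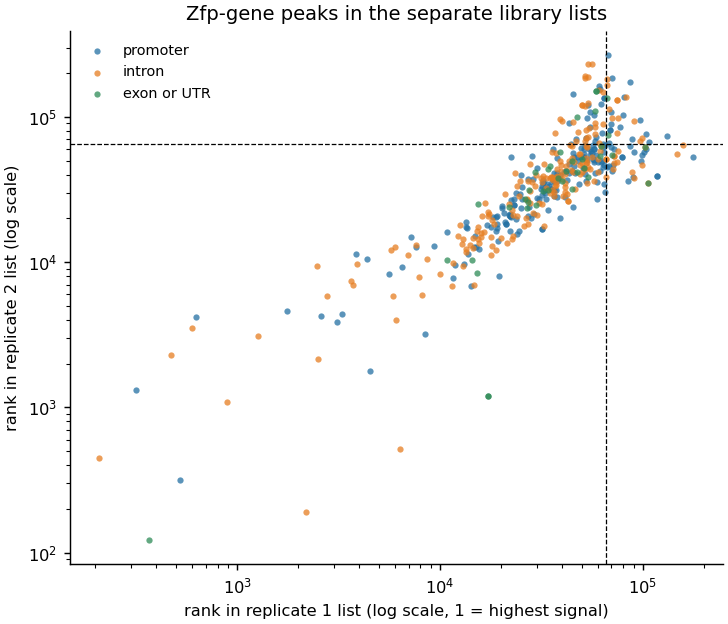
Rank of each Zfp-gene peak in the separate peak list of replicate 1 (horizontal) and of replicate 2 (vertical), both on log scales with rank 1 the highest signal, coloured by position. Dashed lines mark rank 65482, the bound of the upper set, and the 339 members in the lower left rectangle are in the upper set of both libraries.

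The highest-signal Zfp-gene peak lay in a coding exon. It was the Zfp219 peak at chr14:52008780-52009219 (percentile 99.8, rank 367 in replicate 1 and 123 in replicate 2), in the gene's longest coding exon, 1355 bp from the nearest TSS. Its summit fell inside a finger codon stretch, while its match, printed above, was centred 29 bp away, outside the fingers and on the strand opposite the gene. Zfp219 encodes a C2H2 transcriptional regulator. Zfp618, whose product binds the chromatin protein UHRF2, had the next highest peak, in an intron (percentile 99.6, ranks 209 and 449). Zfp398 followed with a promoter summit 53 bp upstream of a TSS (99.5, ranks 520 and 315), and Zfp286 with an intron peak (99.5, ranks 2187 and 192). The promoter peak of Zfp638, an RNA- and DNA-binding cofactor of adipocyte differentiation, stood at 98.8 (ranks 316 and 1311), 89 bp upstream of a TSS. The intron peak of Zfp950 stood at 98.7 (ranks 894 and 1096). The intron peak of Zfp385b stood at 98.5 (ranks 474 and 2282), and it alone of the 10 highest had no match within 100 bp of the summit. The promoter peak of Zfp385a, a gene of the same subfamily, stood at 98.0 (ranks 625 and 4220) with the highest motif score of these 10, 22.4 bits. The intron peaks of Zfp664 (97.8, ranks 598 and 3508) and Zfp652 (97.7, ranks 6326 and 521) complete the 10. Each of the 10 was in the upper set of both libraries.

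At promoters, the next highest peaks were those of Zfp786 (percentile 95.9, 20 bp upstream of a TSS) and Zfp113 (95.2, 137 bp upstream, no match). In 3' UTRs, the highest was that of Zfp444 (84.2, ranks 10826 and 10262). Its match, with short flanks, is given because it scored 21.1 bits.
Zfp444 3' UTR, chr7:6191574-6191602, minus strand: agcccTCACCACCAGAGGGCAGCActgcc
The 3' UTR peaks of Zfp574 (71.1), Zfp652 (60.6), Zfp568 (59.4) and Zfp251 (57.1) followed, and 11 of the 16 peaks in this class had a match (68.8%, 44.4% to 85.8%, against 61.6% in other genes). The 2 peaks in 5' UTRs belonged to Zfp687 (42.3) and Zfp503 (32.2). In other exons the highest were Zfp786 (81.1), Zfp169 (80.3), Zfp386 (65.5), Zfp644 (60.9) and Zfp68 (52.0). Of the 8, 6 had a match (75.0%, 40.9% to 92.9%, against 67.8% in other genes). All 6 matches lay on the gene's own strand (61.0% to 100%, against 52.6% in other genes), a share that rests on 6 peaks.

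Coding exons of Zfp genes held few summits for their length. When every summit in a coding exon was counted, also those within 1 kb of a TSS, Zfp genes had 26 summits in 758 kb of coding sequence, or 3.43 per 100 kb (exact Poisson interval 2.24 to 5.03). Other protein-coding genes had 6.36 per 100 kb (6.10 to 6.64). Inside the Zfp genes, the finger codons held 4 summits in 253 kb (1.58 per 100 kb, 0.431 to 4.05) and the other coding bases 22 in 505 kb (4.36 per 100 kb, 2.73 to 6.60). GC content moves with this, at 45.6% in the finger codons and 49.7% in the other coding bases. Distance to a TSS does so too. All 4 finger summits lay more than 1 kb from a TSS, whereas every coding summit within 1 kb of one was among the 22. The part of GC content and of TSS distance in the difference was not tested. The 2 intervals overlap, and the split depends on where a finger ends. A finger was counted from its first cysteine to its last histidine, so linkers between fingers fell among the other coding bases. Among the 22 are summits of Zfp777, Zfp516 and Zfp771 that lay 1, 6 and 7 bp from a finger. The 15 peaks of the coding-exon class sat in sequence of higher GC than those of other genes, with a median of 65.2% within 100 bp against 57.2%. Of these 15, 11 lay in the longest coding exon of the gene, 4 had their summit inside a finger, 6 had a motif match, and 3 of these matches overlapped finger codons (Zfp385a, Zfp516 and Zfp777). After Zfp219, the highest in the class were 2 summits of Zfp385a (89.9 and 73.6) that share 1 interval, then Zfp503 (57.7), Zfp444 (43.3), Zfp335 (37.6) and Zfp524 (34.4). The rest stood at 29.1 or lower, down to 0.428 for a second summit of Zfp771. The 2 coding matches below are shown because that of Zfp385a overlaps a finger and that of Zfp524 does not.
Zfp385a coding exon, chr15:103315414-103315472, minus strand: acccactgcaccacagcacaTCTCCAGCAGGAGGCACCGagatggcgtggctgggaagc
Zfp524 coding exon, chr7:5017554-5017612, plus strand: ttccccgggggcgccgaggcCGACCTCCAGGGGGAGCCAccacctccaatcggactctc

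Long genes with many intronic peaks formed the other end of the family. Zfp423, a large multi-finger regulator of adipocyte and cerebellar development, spans 298 kb on chromosome 8 and had 16 peaks, all in introns and none at a promoter. Their percentiles ran between 0.205 and 92.1, and 9 of the 16 had a match. Zfp407, with 462 kb on chromosome 18, had 13 peaks (highest 86.4), of which 2 were at promoters. Zfp516, a regulator of brown fat, had 12 peaks in 94.7 kb, among them a promoter peak at 94.8 and an intron peak at 97.2. Zfp64 had 10 peaks in 62.3 kb (highest 86.9) and Zfp618 had 9 in 174 kb (highest 99.6). Of the 24 Zfp genes of 100 kb and over, 23 had a peak (95.8%), against 97.1% of the other genes of that length. Among all members, 27 pairs of summits lay within 500 bp of each other in the same gene. Such pairs were not counted in other genes, so the number shows nothing particular to Zfp genes. Whether paired summits are separate sites was not tested. With peaks within 500 bp of a higher-signal peak left out, 452 members remained and promoters held 45.8% of them.

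Tandem clusters of Zfp genes had their peaks mostly at promoters. A cluster was a run of at least 3 Zfp genes with gaps of at most 100 kb, and 29 such runs held 178 of the 383 genes. Promoters took 101 of the 147 peaks of clustered genes (68.7%, 60.8% to 75.6%), against 122 of the 332 peaks of the other Zfp genes (36.7%, 31.7% to 42.1%). Per 100 kb of gene body, clustered genes had 3.30 peaks and the other Zfp genes 3.15, against 3.45 in other protein-coding genes. The order of the 2 Zfp values turned without replicate 1 (3.09 and 3.29), without replicate 2 (2.78 and 3.07), in the upper 50% of the list by signal (1.07 and 1.22) and with cluster gaps of up to 250 kb (2.77 and 3.40), so neither group can be called denser. When promoter peaks were left out, clustered genes had 1.41 peaks per 100 kb of body and the other Zfp genes 2.30, against 2.71 in other protein-coding genes. A promoter peak was present at 80 of the 178 clustered genes (44.9%) and at 93 of the 205 other Zfp genes (45.4%), so the promoters themselves did not differ by position in a cluster beyond counting error. The motif share was 33.3% (26.2% to 41.3%) in clustered genes and 45.8% (40.5% to 51.2%) in the other Zfp genes, and the median signal percentile was 35.4 in clustered genes and 40.4 in the others. Clustered genes were shorter, with a median of 15.6 kb against 20.2 kb, and had more fingers, with a median of 11 against 9. Their 5′ ends had a median CpG ratio of 0.545 within 500 bp, against 0.646 in the other Zfp genes. The part of these features in the difference was not tested. By finger number, a promoter peak was present at 39.0% of the 187 Zfp genes with 11 or more fingers (32.3% to 46.2%) and 49.5% of the 111 genes with 6 to 10. It was present at 55.6% of the 72 genes with 1 to 5 (44.1% to 66.5%). The 13 genes with no finger match broke this order, at 38.5% (17.7% to 64.5%), and the intervals of all these classes overlap. The spans of the clusters, intergenic sequence included, held 3.47 peaks per 100 kb, against 2.59 over chromosomes 1 to 19. That second value includes sequence far from genes, and the bodies of other protein-coding genes held 3.45. Single clusters ran from 0 to 12.2 per 100 kb, so no enrichment of clusters is shown. Zfp genes were most numerous on chromosome 7, which held 92 of them and 78 of the peaks, and no Zfp-gene peak was listed in 5 of the 29 clusters.

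The 11 clusters of 6 or more genes differed widely. On chromosome 6, each of the 7 genes between Zfp786 and Zfp746 had a promoter peak, and the 14 peaks included those of Zfp398 (99.5) and Zfp786 (95.9). The highest promoter peaks of the other genes of that cluster were those of Zfp282 (74.9, 70 bp upstream of a TSS), Zfp212 (70.4, 57 bp downstream), Zfp746 (63.3, 21 bp upstream), Zfp777 (52.0, 330 bp downstream) and Zfp956 (14.4, 1 bp downstream), and none of these 5 had a match. All 7 of these promoter windows were CpG-rich, with observed-over-expected ratios between 0.727 for Zfp956 and 0.947 for Zfp746. On chromosome 4, no peak was listed at the 6 genes between Zfp982 and Zfp933, and their whole span of 356 kb held 1 peak. The filters behind the list are unknown, so a missing peak there need not mean missing binding. On chromosome 13, the largest cluster, 23 genes between Zfp712 and Zfp273, had 18 peaks at 14 of its genes, and only 1 peak, upstream of Zfp65 (55.5), had a match. The highest peak there was at the promoter of Zfp595 (71.3, without a match, CpG ratio 0.431), followed by promoter peaks of Zfp729b (61.4, ratio 0.246) and Zfp729a (58.4, ratio 0.465), so promoter peaks without a match were not restricted to CpG-rich windows. On chromosome 17, the cluster Zfp677 to Zfp994 had 16 peaks at 13 of its 15 genes, with the highest at Zfp54 (90.7), and the cluster Zfp871 to Zfp563 had 7 peaks at 6 of its 8 genes, with the highest at Zfp870 (62.8). The other 6 large clusters lay on chromosome 7. Their gene numbers and peaks were 15 genes with 13 peaks from Zfp84 to Zfp146 (highest Zfp568, 80.4), 7 with 8 from Zfp553 to Zfp689 (Zfp764, 83.4), and 6 with 8 from Zfp787 to Zfp28 (Zfp444, 84.2). The last of them were 8 genes with 4 peaks from Zfp607b to Zfp850 (Zfp607b, 79.7), 10 with 4 from Zfp180 to Zfp94 (Zfp61, 62.3) and 6 with 4 from Zfp628 to Zfp580 (Zfp524, 34.4).

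**Figure D5:**
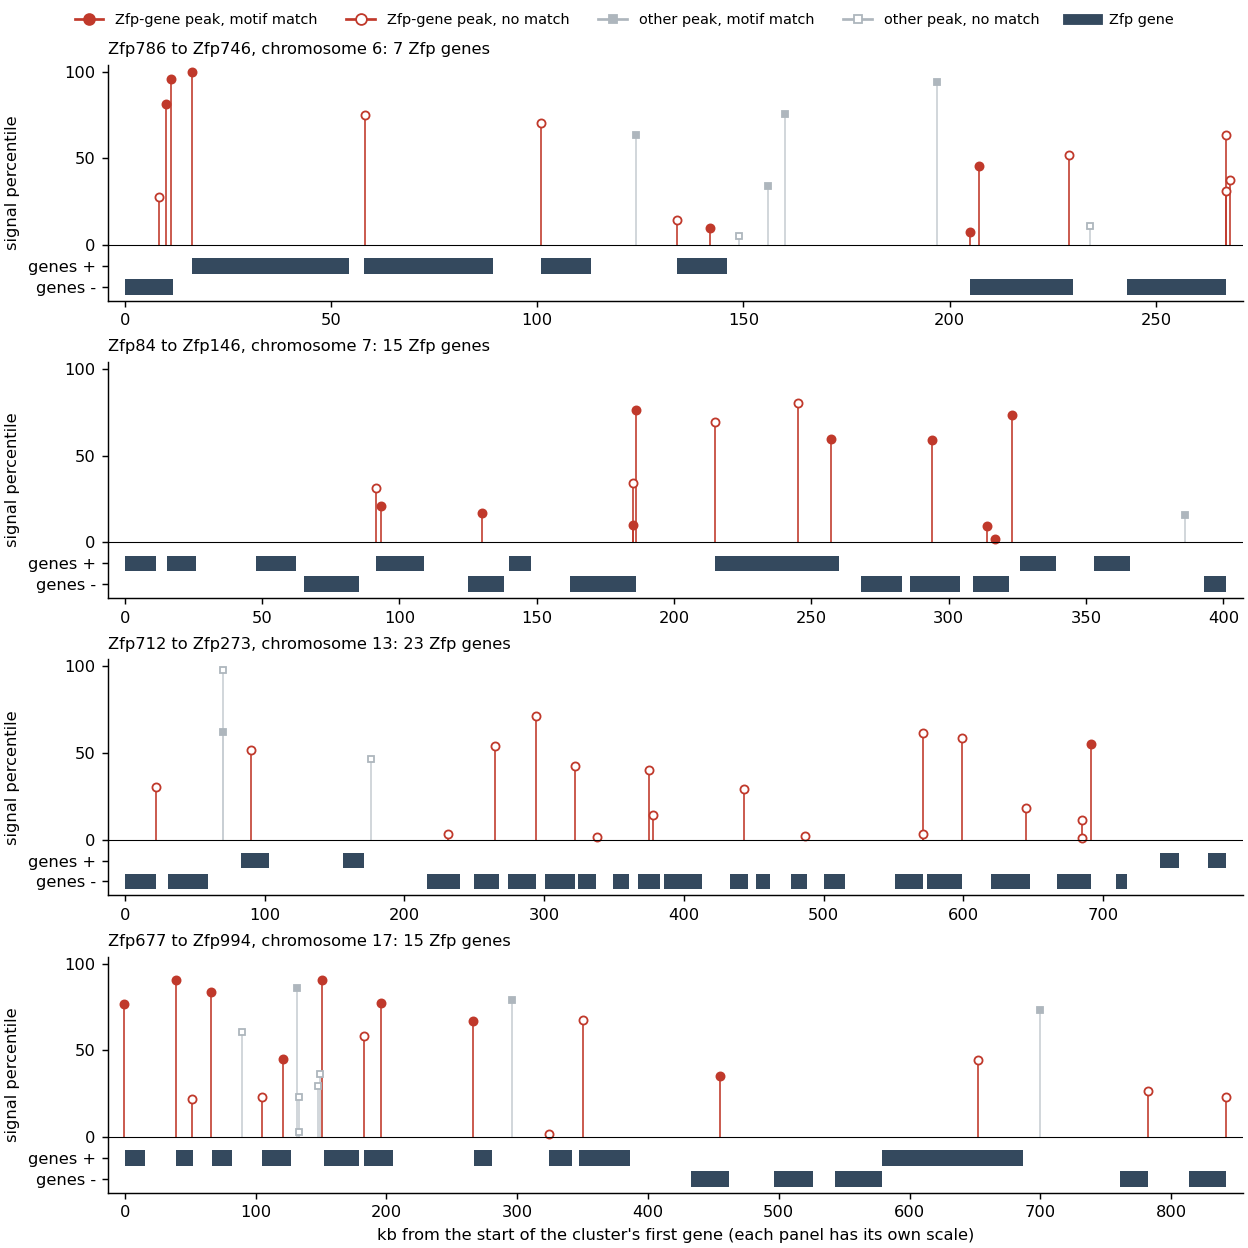
Maps of 4 Zfp clusters in kb from the start of the first gene, each panel to its own scale, with Zfp genes as bars by strand and every peak of the span as a line whose height is its signal percentile. Filled symbols have a motif match and open ones none, with Zfp-gene peaks in red and other peaks in grey. The chromosome 13 panel has 1 filled red symbol, whereas the chromosome 17 panel has 8, of which 6 are the related sites upstream of or inside Zfp677, Zfp54, Zfp51, Zfp52, Zfp948 and Zfp983.

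The 6 related sites of the chromosome 17 cluster were compared after their values were seen. They were chosen as the cluster's matches that, with the 20 bases before them, shared at least 26 of 39 bases with that of Zfp948. Pair by pair, their 19-base matches were identical at 13 to 18 positions, and the match with the 20 bases before it was identical at 24 to 31 of 39 positions (15 pairs, median 29). The bound counts the match bases, so these values follow in part from the choice. The part outside the match varied by pair. Zfp54 and Zfp948 shared 18 of 19 match bases and 26 of 39 bases, whereas Zfp677 and Zfp983 shared 13 of 19 and 30 of 39. Their percentiles were 90.7 for Zfp54, 90.3 for Zfp52, 83.5 for Zfp51, 77.5 for Zfp948, 76.9 for Zfp677 and 66.8 for Zfp983, and each lay outside soft-masked sequence and ranked in the upper set of each library. In 5 of the genes the summit lay upstream of the TSS, by 250 bp at Zfp677, 447 bp at Zfp54, 525 bp at Zfp51 and at Zfp983, and 926 bp at Zfp52. The Zfp948 match lay in an intron, 12685 bp from the TSS. Around every TSS of the 15 cluster genes, 2 kb on each side was searched for the closest ungapped copy of the Zfp948 39-mer. The copy had 26 to 30 identical bases at these 6 genes, each on the strand opposite the gene and with a peak summit within 200 bp. At 5 of them the copy was the chosen site itself, so its identity, strand and peak were fixed by the choice. Only the second copy at Zfp948, with 29 identical bases and a peak summit within 200 bp, was new. At Zfp948 that summit is the gene's promoter peak (58.2), 606 bp upstream of the TSS, which itself did not reach the match threshold. At the other 9 genes the closest copy had 19 to 22 identical bases and no peak summit within 200 bp. The resemblance was not limited to that cluster. When the 195 other member matches of all chromosomes were set against the Zfp948 match with its 20 preceding bases, 1 had 26 or more identical bases and the rest had at most 22. It was the intron match of Zfp944 (77.2, ranks 12485 and 17959), also on chromosome 17 but in another cluster of 3 genes, which was identical to the 6 at 26 to 28 of 39 positions, lay on the strand opposite its gene and outside soft-masked sequence, and had its summit 8383 bp from the nearest TSS.
Zfp944 chr17:22352980-22353038, plus strand: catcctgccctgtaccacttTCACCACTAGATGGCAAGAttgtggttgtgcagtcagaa

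Repeat sequence was the other source of shared matches. Soft-masked sequence held 77 of the 201 member matches (38.3%), against 33.2% of the matches in other genes, and these members had a median signal percentile of 32.6, against 71.0 for members whose match lay outside it. In other genes these medians were 38.1 and 71.8. Outside chromosome 18 the 182 member matches comprised 168 distinct 19-mers, and 10 of these were shared by 24 members, 22 of which had the match in soft-masked sequence. The most shared match, printed above for 5 members, occurred 1361 times on chromosomes 1 to 19 and was the best match of 705 optimal peaks. Its 5 members stood at 73.3 for Zfp566, 19.4 for Zfp280d, 17.1 for Zfp27, 11.9 for Zfp618 and 8.61 for Zfp64, so 1 sequence went with very different signals. In the chromosome 7 cluster from Zfp84 to Zfp146, 7 of the 13 summits were soft-masked. This was not general: soft-masked summits made up 18.6% of all members and 17.7% of the peaks of clustered Zfp genes, against 21.4% in other genes. Rodent B2 short interspersed elements are known to carry CTCF motifs, but repeat families were not annotated here.

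Genes with described roles were taken as 2 lists. Of 7 KRAB zinc-finger repressors, 3 had a peak (42.9%, 15.8% to 75.0%) and 2 a promoter peak (28.6%, 8.22% to 64.1%), beside 62.6% and 40.3% of all protein-coding genes, which lie inside these wide intervals. Zfp568, which silences a placental promoter of Igf2, had an intron peak at 80.4, a promoter peak at 69.2 and the 3' UTR peak at 59.4. Zfp809, which silences retroviruses through their primer binding site, had promoter peaks at 76.7 (14 bp upstream) and 45.4 and an intron peak at 49.3. Zfp961 had 4 intron peaks between 14.5 and 65.9. No peak was listed at Zfp57 and Zfp445, which protect imprinted methylation, or at Zfp708 and Zfp932. Of 18 genes with other roles, 15 had a peak (83.3%, 60.8% to 94.2%) and 11 a promoter peak (61.1%, 38.6% to 79.7%), and the same background shares lie inside these intervals too. Zfp143, whose product binds promoters and is found at loop anchors with CTCF, had 1 intron peak at 76.2. The corepressor gene Zfp217 had an intron peak at 88.1 and a promoter peak at 28.5. Zfp335, a regulator of neural progenitors, had 7 peaks between 2.00 and 72.1, of which 2 were at promoters and 2 in coding exons. Zfp746 had 3 promoter peaks (63.3, 37.6 and 31.4), Zfp703 had 2 (62.6 and 30.3), and Zfp503, a regulator of striatal neurons, had its highest peak at 62.0, 43 bp upstream of a TSS. Zfp148 had 4 peaks (highest 58.8), Zfp462 had 3 (50.6), Zfp521, an antagonist of EBF1, had 6 (60.9), Zfp106 had 1 (51.2), and the pluripotency factor gene Zfp281 had 1, at its promoter (38.4). The peak of Zfp36, whose product promotes decay of AU-rich mRNAs, lay in its coding exon at 4.04. None was listed at Zfp42, a marker of pluripotent cells, at the spindle factor gene Zfp207 or at the epidermal regulator gene Zfp750.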

How the data were processed

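Newborn mouse kidney was profiled by CTCF chromatin immunoprecipitation sequencing in 2 libraries of 1 group. The deposited files are peak lists on mm10. The signal per peak and the summit offset in bp are the authors' deposited values. Per the notes deposited with each library, the optimal and conservative lists were derived from the list of each library and the pooled list. Not every optimal peak was seen in both libraries, as 21 of the 479 Zfp-gene peaks had no overlapping peak in replicate 2. The sources used here do not give the aligner, peak caller, filters or reproducibility threshold, and depth per library is unknown.

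Genes, isoforms and exons came from GENCODE M21, whose build GRCm38 is that of the files. A 19-bp CTCF matrix was learned from the windows of 100 bp on each side of the summits of peaks outside Zfp genes, without soft-masked bases, starting from the core of the known motif (consensus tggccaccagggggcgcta). A match scored at least 13.7 bits, a score reached once in 10000 positions of control windows 2 kb away. Fingers were read from the genome sequence with the pattern of 2 cysteines and 2 histidines (spacings 2 to 4, 12 and 3 to 5 residues). Code in Python 3.11.15 used numpy 2.4.6, scipy 1.17.1, pysam 0.24.0, samtools 1.23.1 and matplotlib 3.10.9 and was tested on simulated windows and genes. Shares have 95% Wilson intervals, and no test was run over regions, so differences are descriptions.

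Members and gene lists were chosen with earlier results of these data known. Genes were named by 1 rule: the 10 highest-signal peaks, up to 5 of each class, the 5 genes with most peaks, each cluster of 6 or more genes with its highest peak, the lowest peak and all genes of the role lists. Values of other genes were chosen after they were seen. Alternatives were the conservative list, each library alone, peaks within 500 bp of a higher one left out, the upper 50% by signal, other promoter, cluster and motif bounds, and another order of classes.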

Additional observations from a re-analysis of the deposited data

How the results depend on the processing

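Of 89 comparisons of 12 results with an alternative, 67 stayed within 1.5 times the main count or inside the main counting interval and 22 moved. Each library alone was cut to its 65482 highest-signal peaks, the size of the optimal list, and percentiles were taken within that cut. A similar number of peaks was therefore largely set in advance. With 1 library so cut, every result except the share in both libraries kept its value within those bounds. Zfp-gene peaks numbered 477 and 447, promoters held 47.4% and 46.1%, and a match was found in 40.9% and 42.7%, without replicate 1 and without replicate 2. The small difference in peaks per 100 kb between clustered and other Zfp genes, 3.30 and 3.15, changed its sign in each library alone, at 3.09 and 3.29 without replicate 1 and 2.78 and 3.07 without replicate 2, and with gaps of 250 kb, at 2.77 and 3.40. The share in both libraries cannot be given with 1 library. In the upper 50% of the list by signal there were 184 Zfp-gene peaks, a peak at 32.6% of Zfp genes and a promoter peak at 21.4%, a match in 53.8%, a median percentile of 43.5 within that part of the list, 1.07 and 1.22 peaks per 100 kb of clustered and other Zfp genes, and 100% of the peaks in the upper set of both libraries. That share was 85.9% in the conservative list. With promoters of 500 bp, they held 37.7% of the peaks, introns 52.1%, and 39.4% of Zfp genes had a promoter peak; with 2500 bp the values were 58.7%, 35.9% and 52.2%. With gene 5' ends as the only TSSs they were 37.6%, 50.7% and 38.4%. With exon classes placed before promoters, promoters held 32.6% and coding exons 5.43%. The promoter share of Zfp-gene peaks stood above that of other genes under each of these 4 rules, at 37.7% against 21.1%, 58.7% against 41.5%, 37.6% against 18.8% and 32.6% against 19%. A stricter motif threshold left a match in 7.93% of Zfp-gene peaks, against 10.9% in other genes, and a matrix learned from all sequence gave 28.8%, against 38.6%. No paired analysis was possible because there was 1 group. Depth, peak calling and the number of animals limit these values and were not tested.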
